A study of Nematostella vectensis with 84 samples.

Results

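The genes described here are 80 gene models of the starlet sea anemone Nematostella vectensis, out of 23510 in the count table, chosen because their read level was higher after T0 than at T0 in cytochalasin D and not in the other treatments. A gene model had to average at least 20 CPM (counts of a gene scaled to a common library size, with the 10 most abundant genes left out of the library size), which 5912 did. Its mean log2(CPM + 5) over the later time points of cytochalasin D had to exceed T0 by at least 0.3, and the same difference had to stay under 0.3 in both other treatments. Of the 427 that met these limits, the 80 with the highest margin were taken, the margin being the cytochalasin D change minus the larger of the other 2 changes. The members were thus picked from the change after T0 in these same libraries, so that change is given as a description. The comparisons that are read as tests use other contrasts of these libraries, and that between letter sets is not free of the choice.

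The libraries were made from oral discs and tentacles of adult animals, in 14 groups of 6 that the labels letter A to F. Calcium-free KSW (a medium whose abbreviation the labels leave unexplained) and cytochalasin D had time points T0 to T4, sampled hourly while the animals recovered. Streptomycin had T0 to T3, which stand for different exposure times, each followed by an hour of recovery. The sources used here give neither the exposure times nor whether T0 came before or after the trauma, and no strain, dose or number of animals per library. Library F of calcium-free T2 was left out by the rule, leaving 83 libraries.

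Cytochalasin D binds the growing ends of actin filaments and stops them from lengthening. The tentacles of sea anemones carry mechanoreceptors topped by bundles of actin-filled stereocilia. Calcium-free media break the extracellular links between stereocilia, and streptomycin is known in vertebrates to block the transduction channels of hair cells and, with longer exposure, to damage these cells. The gene models carry only numbered identifiers. None of the members is named in the reference gene table, where 0 of all 23510 identifiers were found, so no member can be tied to actin, to hair bundles or to any other function, and their sequences are not shown.

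A library held 194043 to 584632 reads in total (median 311684), and the 10 most abundant genes took 30.4% of them. The members were low: their mean levels ran from 20.02 to 152.9 CPM with a median of 29.3, against 46.5 for all 5912 genes, and 59 of the 80 averaged under 40 CPM, against 42.8% of all genes. A member had a median of 6 reads in a library, so its level in 1 library carries a large counting error. Separate animals are not stated for the libraries of a group, so the p-values rest on a spread between libraries that may be technical. Libraries A and D, B and E, and C and F of a time point shared sharp on-off patterns in 10 gene models outside the 80, in all treatments alike, so SEs and p-values that take 6 libraries of a group as independent may be too small. Each title ends in a number whose meaning the labels do not give. Those of cytochalasin D ran in unbroken blocks of 6 by time point, and all lay above those of calcium-free KSW, so treatment and number range cannot be told apart.

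The 80 were low at T0 of cytochalasin D, which the rule favoured, and their median was nearly flat after it. The median member stood at a log2(CPM + 5) of 4.53 at T0 and, from T1 to T4, of 5.17, 5.12, 5.11 and 5.15. The step to T1 was thus as large as the later difference from T0: 77 members were higher at T1 than at T0, and 56 had reached at least 80% of their mean later rise by T1. The same median in calcium-free KSW was 5.26, 5.12, 5.16, 4.97 and 4.98 from T0 to T4, and in streptomycin 5.04, 4.79, 4.84 and 4.89 from T0 to T3. In bulk RNA of this kind, fewer cells of a type and less RNA per cell cannot be told apart.

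**Figure D1:**
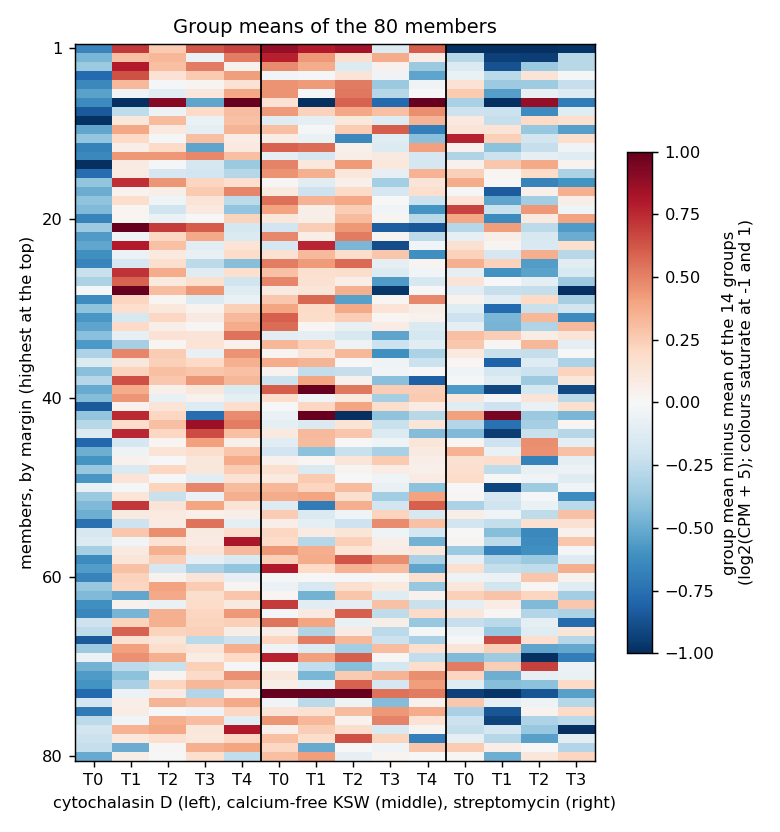
Group means of the 80 members (rows, by margin) in the 14 groups (columns), as the difference in log2(CPM + 5) from the mean of the 14 groups, with colours saturating at -1 and 1. The first column, T0 of cytochalasin D, is blue in nearly all rows. It is the lowest of the 14 means in 34 of the 80, against 6.44% of all genes past 20 CPM. Some cytochalasin D group holds the highest of the 14 means in 31 of the 80, a somewhat larger share than among all genes past 20 CPM.

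The summed level of the 80 gives the same picture library by library. At T0 of cytochalasin D the 6 libraries summed to 2093 ± 334 CPM (SD, n = 6; 1650 to 2585). The T1 sum was 3396 ± 296 CPM, the T2 sum 3328 ± 317, the T3 sum 3255 ± 472 and the T4 sum 3397 ± 331 (each n = 6), with a lowest later library of 2745 CPM. The T0 libraries and the later libraries of cytochalasin D therefore did not overlap in this sum, which the choice of members fixed. The group means of calcium-free KSW lay between 3583 ± 297 CPM at T0 and 2820 ± 296 at T3, and those of streptomycin between 2950 ± 380 at T0 and 2459 ± 198 at T1 (each n = 6).

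Not all 6 T0 libraries were equally low. For each library, the median over the 80 of log2(CPM + 5) minus the gene's mean over the 83 libraries was taken. At T0 of cytochalasin D this was -0.37 in A, 0.04 in B, -0.62 in C, -0.60 in D, -0.51 in E and -0.63 in F. Library B thus stood among the later libraries, which ran from -0.08 to 0.41. The other libraries of the series ran from -0.29 to 0.41, except streptomycin T2 A at -0.64. The median over all 5912 genes lay between 0.01 and 0.15 in the 6 T0 libraries.

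**Figure D2:**
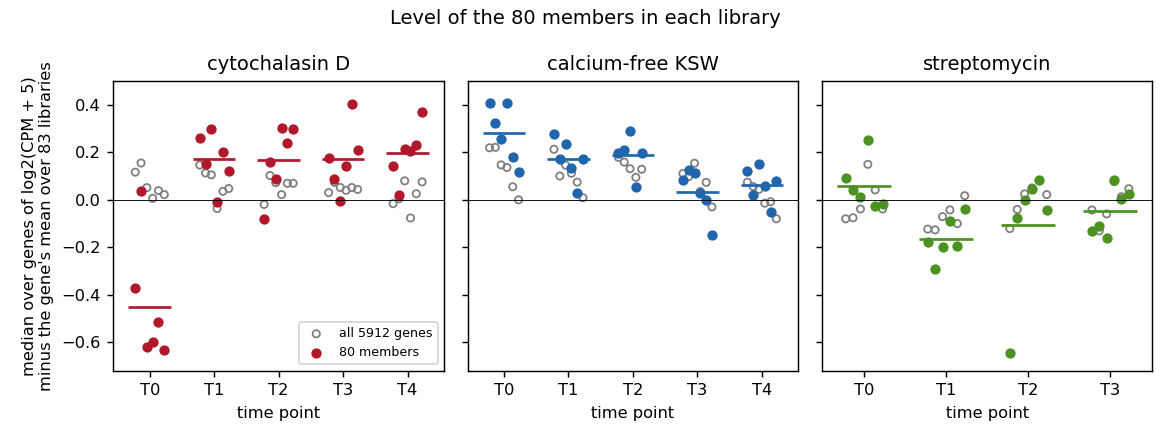
Each point is 1 library: the filled points give the median over the 80 members, and the open grey points the median over all 5912 genes, of log2(CPM + 5) minus the gene's mean over 83 libraries. Bars are means over the 5 or 6 libraries of a group. At T0 of cytochalasin D 5 of the 6 libraries lie at -0.37 or lower, and library B lies at 0.04.

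A full separation of T0 from the later time points was rare among all genes. In 0 of the 80 did all 6 T0 libraries of cytochalasin D lie below all 24 later ones, and in 4 of all 5912 genes. This count therefore does not set the members apart. A median of 21 of the 24 later libraries lay above the T0 median of a member, with a range of 14 to 24, where 12 is the median over all genes. The size of the change ran from 0.30 to 1.23 on the log2(CPM + 5) scale with a median of 0.63. In calcium-free KSW it ran from -0.73 to 0.22 with a median of -0.17, and in streptomycin from -0.80 to 0.21 with a median of -0.20. Over all 5912 genes the 3 medians were -0.03, -0.05 and -0.03. The margin ran from 0.57 to 1.28 with a median of 0.68, and the limit fell in a dense region: the member ranked 80 had a margin of 0.570 and the gene ranked 81, just outside, 0.568.

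NVE123 had the highest margin, and its values show how the groups spread. In cytochalasin D its 6 T0 libraries ran from 4.66 to 45.7 CPM with a median of 23.4, and its 6 T1 libraries from 46.2 to 89.02 with a median of 57.8. These 2 groups did not overlap, but T2 ran from 19.8 to 134.3 CPM and T3 from 11.1 to 111.9, across the T0 range. Calcium-free T0 held 15.7 to 177.2 CPM with a median of 78.4, across the range of cytochalasin D. Streptomycin held far less, 17.5 ± 12.5 CPM over 24 libraries (SD), and the C library had 0 reads at each of the 4 streptomycin time points. A count of 0 still allows up to 17.0 to 20.01 CPM in those libraries (3 reads), for counting error only. NVE18066, the next by margin, ran from 3.96 to 20.3 CPM at T0 of cytochalasin D and from 7.27 to 38.1 at T1, so that its groups overlapped.

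NVE18696 and NVE16519 were the most abundant members. Their changes after T0 in mean log2(CPM + 5) were 0.625 and 0.481, against a member median of 0.628. NVE18696 averaged 101.9 ± 35.3 CPM at T0 of cytochalasin D (SD, n = 6) and 166.8 ± 32.8 at T1, and then stayed between 138.8 and 166.1 CPM. In calcium-free KSW its group means lay between 145.8 and 180.9 CPM and in streptomycin between 137.1 and 177.7. The later cytochalasin D level of this gene was thus within the range of the other treatments, and the T0 level was below it. NVE16519 averaged 89.7 ± 42.0 CPM at T0, 164.2 ± 41.1 at T1 and again 94.9 ± 30.7 at T4. Its T4 mean of log2(CPM + 5) was nevertheless above T0, and 75 of the 80 had all 4 later means of this kind above T0, against 22.9% of all genes.

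Set beside the other treatments, the members differed most at T0 and less afterwards. The T0 gap, cytochalasin D minus calcium-free KSW in mean log2(CPM + 5), was below 0 in 80 of 80 members with a median of -0.72 (quartiles -0.88 and -0.43). Over all 5912 genes 54.9% were below 0 with a median of -0.05. Over the later time points the members' gap had a median of 0.09 and was below 0 in 28. Against streptomycin, the T0 gap had a median of -0.50 and was below 0 in 70 (39.3% of all genes). The later gap had a median of 0.33 and was below 0 in 10 (36.8% of all genes). For all genes these medians were 0.09 and 0.09. T0 of cytochalasin D was the lowest of the 3 T0 means in 70 members, against 27.3% of all genes. The later cytochalasin D level exceeded T0 of both other treatments in 27, a count for which the share of all genes was not taken. The label of rising genes holds for the change itself. By level, the median gaps of the members were larger at T0, where cytochalasin D was lower, than later, where it was somewhat higher. All of these gaps share T0 with the choice, so they describe the members and support nothing.

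**Figure D3:**
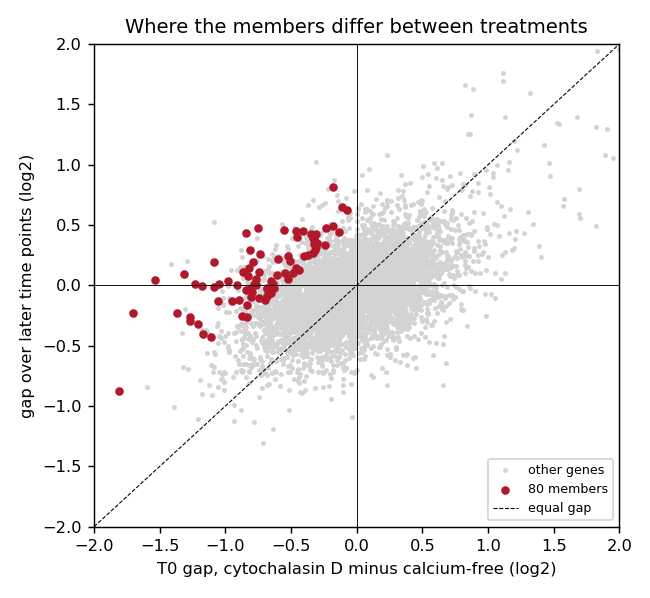
Each point is a gene: the x axis gives cytochalasin D minus calcium-free KSW in mean log2(CPM + 5) at T0, and the y axis the same gap over the later time points. The 80 members (red) all lie left of 0, with a median of -0.72, and scatter around 0 on the y axis with a median of 0.09. Grey points are the other genes past 20 CPM, and the dashed line marks equal gaps; 14 other genes lie beyond the axes, which end at -2 and 2.

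The T0 gap can also be given letter by letter, from the same T0 libraries that chose the members, so its recurrence over letters supports nothing further. Comparing libraries of the same letter at T0, the median member was lower in cytochalasin D than in calcium-free KSW by a log2 difference between -1.11 and -0.46 over the 6 letters, with 56 to 70 of the 80 below 0. At T1 the 6 medians ran from -0.17 to 0.17, and at T4 from 0.01 to 0.29. Some combinations of time point and letter pair carried the same on-off pattern in the 10 switching gene models and could be compared with the pattern held fixed. In 1 set, T0 of letters B and E (2 cytochalasin D libraries) could be set against 6 later ones: the later libraries were higher in 67 of 80 members with a median of 0.39, against -0.06 over all genes. These libraries entered the choice too, so a higher later level was largely fixed beforehand.

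How far the choice depended on particular libraries was read by choosing again within 1 letter set. The rule was run on letters A to C alone and on D to F alone, and each list of 80 was then looked at in the letters it had not used. The list from A to C had a median cytochalasin D change of 0.74 in its own letters. In letters D to F it had -0.04, and 36 of 80 were above 0, where all genes gave -0.02 and 48.4%. The list from D to F had 0.96 in its own letters. In letters A to C it had 0.07, and 44 of 80 were above 0, where all genes gave -0.06 and 43.9%. In the letters not used, 24 and 25 genes of the 2 lists (30% and 31.2%) reached a change of 0.3, against 22.4% and 18.3% of all genes. All the change limits were met by 14 and 9 (17.5% and 11.2%), against 11.8% and 7.95% of all genes. The lists shared 3 of 80 genes, and they shared 22 and 30 with the 80 members. In letters not used for the choice, the lists thus had medians near those of all genes, with somewhat larger shares past the limits; these differences were not tested.

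**Figure D4:**
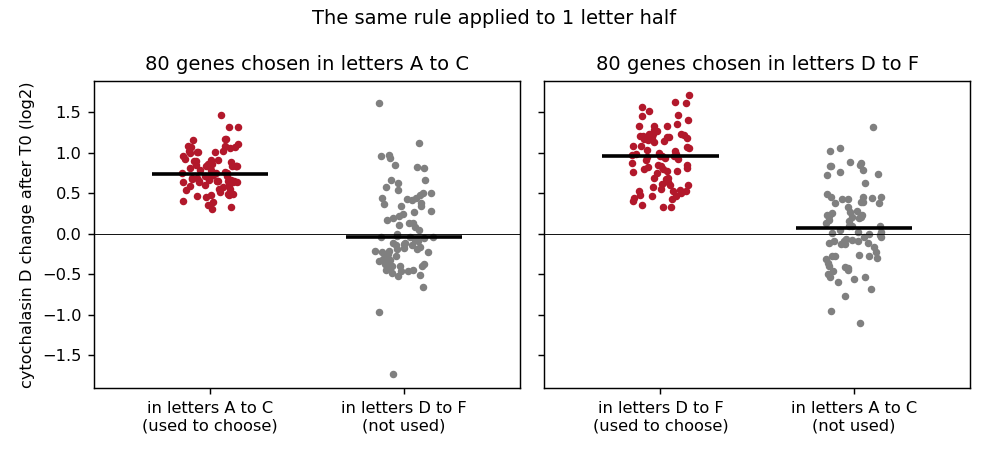
Change after T0 in cytochalasin D (log2) of 80 genes chosen by the same rule in letters A to C (left) and in letters D to F (right). In each panel the red points are the letters used for the choice and the grey points those not used; black bars are medians, 0.74 and -0.04 on the left and 0.96 and 0.07 on the right.

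Lists chosen on the cytochalasin D change alone, added after seeing the data, began with larger changes and had higher medians in the letters not used. The 80 genes with the largest such change in A to C had a median of 1.21 there. In D to F they had 0.40, and 50 of 80 were above 0 (all genes -0.02 and 48.4%). Those of D to F had 1.25 there. In A to C they had 0.45, and 61 of 80 were above 0 (all genes -0.06 and 43.9%). Libraries A and D, B and E, and C and F shared on-off patterns, so the letter sets are not independent. A gene that switches by letter pair can recur in both, and its part in these values was not tested. The 80 members themselves had a median change of 0.46 in A to C and 0.82 in D to F, and 72 were above 0 in both, but both letter sets had entered their choice.

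Fitted one time point at a time, few members passed a threshold. In edgeR's quasi-likelihood test with Benjamini-Hochberg adjustment, 42 of the 80 passed the filter on low counts in cytochalasin D. At T1, 0 of these were called against T0 (0.154% of 4534 genes were), with 22 at an unadjusted p under 0.05 (13.0% of all genes) and 1 called by DESeq2 (0.485%). At T2, 0 were called (0.97% of all), with 14 unadjusted (15.4%) and 1 by DESeq2 (2.14%). At T3, 4 were called, all higher (2.25% of all genes were called higher), and at T4, 7, all higher (5.56% of all). Without the filter all 80 could be fitted, and the calls were 12 for T1 (0.58% of 22600 genes), 4 for T2 (0.792%), 6 for T3 (1.06%) and 7 for T4 (1.91%). These contrasts are those of the rule, and nothing is read from them. The T4 count fell to 4, 3 and 4 without T0 A, T4 E and T4 F, and the T1 count rose to 2 without T0 B and to 1 without T1 A or T2 A. The T2 count rose to 1 without T0 B.

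NVE1298 had the largest called difference at T3. The choice of members used T0 and the later time points, so the p-values of this paragraph describe the named members and support nothing. Its T0 libraries ran from 7.91 to 20.3 CPM and its T3 libraries from 27.2 to 73.7, without overlap, a log2 difference of 1.62 ± 0.33 (SE, adjusted p = 0.00542). At T4 it stood at 28.2 ± 11.6 CPM (SD, n = 6), with a range from 8.34 to 42.5 that overlapped T0. NVE21851 ran from 25.3 to 71.9 CPM at T0, from 62.7 to 159.9 at T3 and from 53.1 to 181.2 at T4. Its log2 difference was 1.24 ± 0.35 at T3 (SE, adjusted p = 0.0353) and 1.17 ± 0.35 at T4 (adjusted p = 0.0295). NVE2930 ran from 5.07 to 38.6 CPM at T0 and from 26.6 to 88.5 at T4, a difference of 1.28 ± 0.39 (adjusted p = 0.0320). The call of NVE21851 at T3 ended without any of T0 A, B, C, E and F and T3 D, E and F, with adjusted p up to 0.0961. Its call at T4 ended without T0 A, B, E or F or T4 E or F, with adjusted p up to 0.129. That of NVE2930 ended without T0 A, C or F or T4 B, E or F, with adjusted p up to 0.0949. With the letter pairs of a time point summed, NVE2930 was not called either (adjusted p = 0.0875).

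Whether the members kept changing during recovery was read from late minus early (mean of T3 and T4 minus mean of T1 and T2), which is independent of the mean later level minus T0 that chose them. In cytochalasin D 0 of 42 members were called (1.9% of 4534 genes were), with 6 at an unadjusted p under 0.05 (16.3% of all genes) and 0 called by DESeq2 (2.29%). Their median difference was 0.01, with quartiles -0.17 and 0.17, and that of all genes was 0.00. The median SE of a member was 0.23. Member differences ran from -0.75 to 1.40 without a call (lowest adjusted p = 0.0678 in edgeR), so changes well above this SE could have been missed. In calcium-free KSW 0 of 42 were called (1.52% of 4473), with 7 unadjusted (19.7% of all) and 0 by DESeq2 (2.75%); their median was -0.12 and that of all genes -0.01. The difference between both courses was called in 0 of 63 (0.019% of 5273), with 1 unadjusted (5.16% of all) and 0 by DESeq2, which called 0 of all genes, and had a median of 0.11 against -0.02 for all genes. In streptomycin, T3 minus T1 was called in 0 of 14 (1.26% of 2862), with 2 unadjusted (16.3% of all) and 0 by DESeq2 (2.27%). Leaving out cytochalasin D T3 D or T4 B gave 1 call in its late minus early contrast, and leaving out streptomycin T1 D gave 1 in that of streptomycin. Without the filter, of all 80, 1 was called in cytochalasin D (1.02% of 22600 genes), 2 in calcium-free KSW (1.05% of 22488), 0 in the difference of the courses (0.00851% of 23491, with 3 members and 4.70% of all unadjusted) and 2 in streptomycin (0.536% of 21448).

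Averaged over all time points, the members were not a set held at a higher level in cytochalasin D than in calcium-free KSW. Against streptomycin, in the fit with the filter on low counts, members were called about as often as all genes, and those called were mostly higher. Of 63 members that passed the filter in a fit of all treatments, 5 were called higher and 5 lower against calcium-free KSW. Over all 5273 genes 27.8% were called, 15.1% higher and 12.7% lower. The members' median difference was -0.01 and that of all genes 0.00. Against streptomycin 11 were higher and 2 lower (23.3% of all genes called, 12.6% higher and 10.8% lower), with a median of 0.10 against 0.02. When T2 and T3 alone were compared, with the 10 streptomycin libraries in the higher range of title numbers, 2 of 72 members were called and 7.33% of 5566 genes. In calcium-free KSW and cytochalasin D the number ranges do not meet, so no such comparison was possible there. Without the filter 10 of all 80 were called against calcium-free KSW (6.43% of 23491 genes) and 14 against streptomycin (5.93%).

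Among these, NVE9824 was the one furthest below calcium-free KSW. It averaged 75.2 ± 36.6 CPM over 30 cytochalasin D libraries (SD; 27.0 to 194) and 158.7 ± 64.5 over 29 calcium-free libraries (48.6 to 360), a log2 difference of -1.05 ± 0.14 (SE, adjusted p = 8.21e-09). Streptomycin held less than both, 48.1 ± 24.4 CPM. NVE12610 was likewise lower, 19.8 ± 10.5 against 31.7 ± 14.8 CPM (log2 difference -0.62 ± 0.19, adjusted p = 0.0101). NVE13969 was higher in cytochalasin D, 29.2 ± 18.9 against 17.9 ± 14.6 CPM (0.72 ± 0.22, adjusted p = 0.00976). Its cytochalasin D means went from 14.0 CPM at T0 to 48.5 at T1 and back to 16.8 at T4. A rise and fall was also seen in streptomycin, with 15.2 CPM at T0, 32.8 at T1 and 15.2 at T2. Calcium-free KSW had 17.1 CPM at T0, 31.4 at T2 and 9.14 at T4. In cytochalasin D NVE1235 likewise had its highest mean at T1, with 33.9 CPM at T0, 88.4 at T1 and 31.7 at T4. Over all time points it had 46.1 ± 34.3 CPM against 29.9 ± 20.9 (0.64 ± 0.22, adjusted p = 0.0187). That call ended without cytochalasin D T0 B or T4 F, with adjusted p up to 0.0920, and with summed letter pairs (adjusted p = 0.0999).

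Against streptomycin the clearest member was NVE123, at 54.98 ± 31.2 CPM over 30 cytochalasin D libraries and 17.5 ± 12.5 over 24 (log2 difference 1.47 ± 0.27, adjusted p = 1.66e-05). Its level in calcium-free KSW was 65.96 ± 39.3 CPM, as high as in cytochalasin D. NVE1235 was higher too, at 20.4 ± 10.6 CPM in streptomycin (1.07 ± 0.26, adjusted p = 0.00145). NVE18108 was lower in cytochalasin D, 18.6 ± 11.9 against 29.4 ± 17.3 CPM (-0.76 ± 0.24, adjusted p = 0.0162), and so was NVE15559, 28.0 ± 9.61 against 40.03 ± 19.4 CPM (-0.50 ± 0.17, adjusted p = 0.0203). In the comparison restricted to the higher range of title numbers, NVE1235, NVE18108 and NVE15559 were no longer called (adjusted p = 0.0605, 0.524 and 0.720). NVE18108 was not called with summed letter pairs either (adjusted p = 0.0593), nor NVE15559 without the filter (adjusted p = 0.200).

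The letter sets A to C and D to F differed within cytochalasin D in some members, a comparison balanced over time points and so independent of the rule. The series' design text speaks of 2 conditions of 3 replicates, which the labels do not describe. Of 42 members, 6 were called, all lower in A to C (9.46% of 4534 genes were called, 4.15% higher and 5.32% lower). The median member difference was -0.15 and that of all genes 0.01. Without the filter 6 of all 80 were called (2.08% of 22600), 5 of them lower. Over all 80, the median difference in log2(CPM + 5) moved from 0.24 at T0 to 0.11, -0.08, -0.09 and -0.09 at T1 to T4, and that of all genes from 0.09 to 0.01; these shifts were not tested.

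NVE3341 had the largest of these differences and ranked 3 by margin. At T0 of cytochalasin D its 2 letter sets overlapped, from 32.6 to 73.8 CPM in A to C and from 36.0 to 71.2 in D to F. At T1 to T4 the 12 libraries of A to C ran from 26.3 to 82.7 CPM and those of D to F from 111.9 to 275.5, without overlap. The higher later level of this gene was in letters D to F, with a mean of 178.4 ± 56.2 CPM, whereas A to C had 51.7 ± 20.4 later and 50.7 ± 21.0 at T0 (SD). In calcium-free KSW the later libraries overlapped, from 31.4 to 127.4 CPM in A to C and from 21.7 to 107.4 in D to F. The fitted log2 difference in cytochalasin D was -1.55 ± 0.19 (SE, adjusted p = 5.57e-07), and A to C was lower in 13 of 15 pairs of letters.

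NVE8603 was also higher later in D to F, but with overlap, from 3.95 to 51.6 CPM in A to C and from 26.6 to 159.8 in D to F, and with later means of 31.3 ± 15.99 CPM in A to C and 91.8 ± 38.1 in D to F (SD, n = 12 each). Its T0 libraries ran from 14.1 to 45.6 CPM in A to C and from 18.0 to 45.3 in D to F. The difference was -1.35 ± 0.25 (SE, adjusted p = 2.98e-04), again lower in A to C in 13 of 15 pairs. NVE21851, called at T3 and T4 above, was also among the 6, at -0.93 ± 0.13 (adjusted p = 7.71e-06) and 14 of 15 pairs. Unlike the other 2 it was higher later in both sets, 66.6 ± 10.5 CPM in A to C after 35.7 ± 10.7 at T0, and 129.6 ± 30.9 in D to F after 50.8 ± 18.6.

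Differences within time points between the pairs A/D, B/E and C/F were called in 2 of 42 members (5.05% of 4534 genes), and without the filter in 6 of 80 (2.34% of 22600). NVE14796, ranked 7 by margin, was one (adjusted p = 2.43e-11). Its 83 libraries fell into 35 between 156.8 and 315.9 CPM and 48 between 0 and 31.7 CPM, with none between. Which level a library had was the same in all treatments: of the 15 combinations of time point and letter pair, 7 were high in every library, 8 were low in every library and 0 were mixed. At T0 letters C and F were high, with 312 and 259 CPM in cytochalasin D, 270 and 316 in calcium-free KSW and 198 and 189 in streptomycin, and the others were at 22.9 CPM or below. At T1 no library was high, and at T4 all were. Its change after T0, 1.00 in cytochalasin D against 0.02 in calcium-free KSW and -0.10 in streptomycin, was computed from libraries that switched together in all 3 treatments. The low T0 libraries held 3.51 to 10.1 CPM in cytochalasin D and 16.2 to 20.1 in calcium-free KSW.

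NVE2190 was the other (adjusted p = 4.88e-04), without so sharp a gap. At T0 of cytochalasin D letters C and F had 187 and 65.9 CPM and A and D had 25.3 and 0. At T4 A and D had 133 and 154.5 CPM and the other 4 libraries 23.7 to 63.5. In calcium-free KSW letters A and D were instead the lowest at T4, at 16.1 and 18.0 CPM, and the highest at T0, at 94.7 and 141.0. The pairs differed at T2 too, where A and D had 191.8 and 117.8 CPM in cytochalasin D and 30.7 and 18.5 in calcium-free KSW. At T1, however, A and D were the lowest in both treatments (85.4 and 41.1 CPM, and 60.2 and 18.0). At T3 B and E were the highest in both (162.2 and 135.9 CPM, and 88.7 and 83.5).

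**Figure D5:**
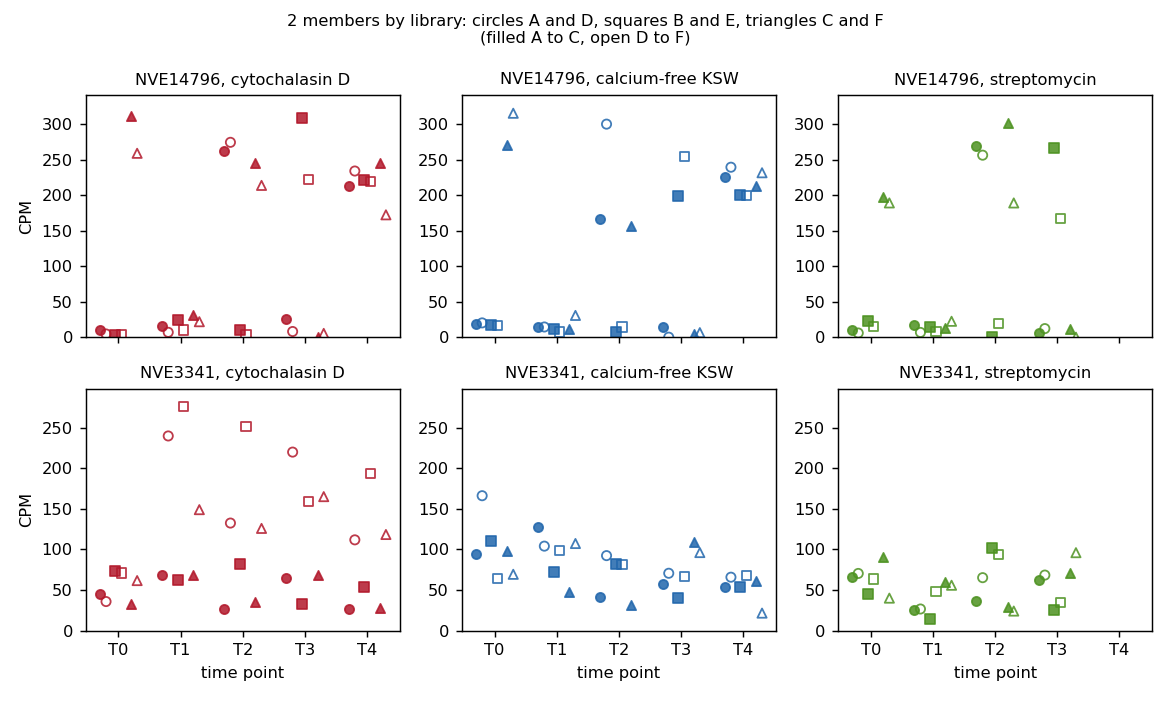
Level (CPM) of NVE14796 (top) and NVE3341 (bottom) in each library by time point, for cytochalasin D, calcium-free KSW and streptomycin (which has no T4); circles are letters A and D, squares B and E, triangles C and F, filled for A to C and open for D to F. NVE14796 is at 156.8 CPM or more, or at 31.7 or less, by time point and letter pair alike in all treatments. NVE3341 after T0 of cytochalasin D is at 111.9 CPM or more in D to F and at 82.7 or less in A to C.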

How the data were processed

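RNA of oral discs and tentacles was extracted with a column kit and made into libraries by a published protocol, per the labels' protocols. The authors deposited 1 table of unscaled read counts for 23510 gene models. Bowtie2 is named in the submitters' processing notes; the sources used here give neither its version and role nor the build, gene annotation, counter and strand setting, so reads of near-identical, overlapping or antisense genes may have been split or joined. All columns matched a sample title and 0 were unused. No columns were identical, and the highest correlation between 2 libraries was 0.926.

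Levels are CPM computed here on column totals minus the 10 most abundant genes. The members, and the lists and comparisons, were chosen with earlier results of these data known. Tests ran on all genes with edgeR 4.0.16 in R 4.3.3 (filterByExpr, TMM, quasi-likelihood, Benjamini-Hochberg, threshold 0.05), 1 mean per group, and were tested on simulated data; DESeq2 1.42.0 was an alternative. SEs come from the F statistic. Cytochalasin D was fitted on its 30 libraries, and comparisons between treatments on all 83. Identifiers were named by rule: the 2 members of highest margin, the 2 most abundant, and up to 2 called in each direction per comparison. NVE21851 in the letter sets was added after its values were seen. Floors take 3 reads. Alternatives were another tool or scaling, no filter, the letters as a block, summed letter pairs, 1 joint fit, title number ranges and leaving out each library.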

Additional observations from a re-analysis of the deposited data

Results flagged for a closer look

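In 5 groups, 4.42% of the groups of 5 or 6 libraries looked at, 1 library stood further from the others than Dixon's 95% limit allows; chance alone gives about 1 in 20 such groups. Streptomycin T2 A had the lowest median member level of its group, at -0.64 relative to each gene's mean, and is 1 of the 2 libraries of its group in the lower range of title numbers. Calcium-free T2 C had the highest summed member level of its group of 5, at 3884 CPM. NVE1235 was highest in cytochalasin D T4 F, at 98.1 CPM, the library without which its call against calcium-free KSW ended. NVE9824 was highest at T0 of cytochalasin D in library A, at 91.2 CPM. NVE2190 was highest at T0 of cytochalasin D in library C, at 186.6 CPM. Each cytochalasin D library was left out in turn of every fit that used it, and each calcium-free and streptomycin library of the fit of its own treatment; the part of these libraries in the other results was not tested.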

How the results depend on the processing

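Of 78 counts under alternatives that kept every library, 59 stayed within 1.5 times the reported count. Without a low-count filter, members called were 12 at T1, 4 at T2, 1 and 2 for late minus early in cytochalasin D and calcium-free KSW, 2 for streptomycin T3 minus T1 and 6 for letter pairs. DESeq2 called 1 at T1 and 1 at T2. A joint fit of all treatments called 1 at T1, 1 at T2 and 1 for calcium-free late minus early. Summed letter pairs called 4 at T4. The higher range of title numbers left 2 against streptomycin. The causes were not tested. With each library left out in turn, counts ran from 0 to 2 at T1, 0 to 1 at T2, 3 to 5 at T3, 3 to 8 at T4, 0 to 1 for late minus early in cytochalasin D, 0 to 0 in calcium-free KSW and between both, 0 to 1 for streptomycin T3 minus T1, 8 to 13 against calcium-free KSW, 11 to 15 against streptomycin, 5 to 6 for letter sets and 2 to 3 for letter pairs.

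The rule itself shared 40 of its 80 genes with the members on whole column totals, where all 40 lost fell under 20 CPM, 44 with medians over libraries, 22 and 30 in letters A to C and D to F, and 56 to 77 with a cytochalasin D library left out. Between cytochalasin D and calcium-free KSW every same-letter correlation was 0.147 or higher at T0 to T3, but the lowest at T4 was -0.03, and against streptomycin 0.06 at T2, so letters were not treated as pairs over all time points; with the letter as a replicate block 3 members were called at T1 and 1 at T2, and no other count moved by over 1.5 times. A block of time point and letter pair gave 12 against calcium-free KSW. Of 92 results for named members, 85 kept their call, 7 lost it and 0 reversed. Those lost are named beside their results. Another scaling moved the median of all genes by under 0.1. Depth limits the tests: 42 of the 80 members passed the low-count filter in cytochalasin D.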
